A study of Mus musculus with 8 samples.

Results

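Sarcomeric myosin chains were examined in reprogrammed mouse cardiac fibroblasts. The 8 genes were taken by symbol from the 54532 genes of the deposited table: the heavy chains *Myh6*, *Myh7* and *Myh3*, the regulatory light chains *Myl2* and *Myl7*, and the essential light chains *Myl1*, *Myl3* and *Myl4*. All 8 were found in the table, and 6 passed the filter for testing (0.5 FPKM or more in 2 or more of the 8 libraries). *Myh7* and *Myh3* did not pass it and are given by their values only. FPKM means fragments per kilobase of gene length, scaled for sequencing depth.

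MICFs are cardiac fibroblasts from adult mice with myocardial infarction (MI), taken from the infarcted area on Day 6. The wild-type mice of the study were 8-week-old male C57BL/6 mice. The cells of every group were infected with tetracycline-inducible lentiviruses for MGT (*Mef2c*, *Gata4* and *Tbx5* on 1 construct), *Myocd*, *Sall4* and eGFP. The genotype is named MGTMyoS overexpression, and there was no group without the factors. The viruses were separate and the sort was on eGFP, so a sorted cell need not carry every factor. For the *in vivo* samples, infected MICFs were injected into the left ventricle of C57BL/6 mice right after coronary ligation. These mice received doxycycline in the drinking water and daily TMM (tacrolimus, methylprednisolone and mycophenolate mofetil), which dampens immune rejection. The *in vitro* samples were the same infected cells kept in culture. Their medium held doxycycline, SB431542 (an inhibitor of the TGF-β receptor) and baricitinib (a JAK inhibitor), so that the place of the cells, the inhibitors and TMM cannot be told apart when the 2 settings are compared. eGFP+ cells were sorted on Day 7 (1 week) and Day 14 (2 weeks), with 2 libraries per group. Nothing says which animals or wells a library came from, so p-values measure the spread between these libraries only. Sorted cells were sequenced in bulk, so a lower level can come from fewer cells with a transcript or from less of it per cell, and these cannot be told apart.

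Muscle myosin is a hexamer of 2 heavy chains, which hold the motor and the tail that forms the thick filament, with an essential and a regulatory light chain bound to the neck of each. The heart and the skeletal muscles differ in part, but not fully, in the genes they use for these chains. In the adult mouse heart, *Myh6* encodes the fast α heavy chain and *Myh7* the slower β heavy chain that prevails before birth. *Myl7* and *Myl4* encode the regulatory and essential light chains of atrial muscle, which are also made early in heart development, while *Myl2* and *Myl3* encode those of the ventricle. *Myl1* encodes the essential light chain of fast skeletal muscle, and *Myh3* the heavy chain of embryonic skeletal muscle.

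The upstream sequences of 4 of the genes are shown because several of the delivered factors bind DNA at known motifs and these genes differ widely in level. *Myl7* and *Myh6* were the most abundant light and heavy chain in culture after 2 weeks, *Myl3* rose late, and *Myh7* stayed low. They are RefSeq windows on GRCm38.p6, read 5′ to 3′ on the gene's strand from 250 bases before the annotated start, and bases that GENCODE vM21 places in an exon are left out. Capitals mark matches to any of 6 motifs on either strand: MEF2, the CArG box (bound by SRF, the partner of myocardin), GATA (the letters GATA with adenine or thymine before them and adenine or guanine after them), the core site of T-box factors (AGGTGT), the MCAT element (CATTCC) and the TATA box (TATAAA). None of these motifs overlapped another in the windows printed.
*Myh6* (chr14:54966642-54966857, minus strand): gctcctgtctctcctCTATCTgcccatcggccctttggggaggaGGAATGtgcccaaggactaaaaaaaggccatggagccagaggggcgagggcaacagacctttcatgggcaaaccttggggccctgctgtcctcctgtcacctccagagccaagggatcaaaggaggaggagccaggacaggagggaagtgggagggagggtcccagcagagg
*Myh7* (chr14:54994627-54994876, minus strand): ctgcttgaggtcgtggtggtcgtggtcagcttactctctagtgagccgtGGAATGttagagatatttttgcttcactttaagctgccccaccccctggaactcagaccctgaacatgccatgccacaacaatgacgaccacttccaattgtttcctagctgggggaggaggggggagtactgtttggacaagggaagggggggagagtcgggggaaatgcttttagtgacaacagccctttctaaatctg
*Myl7* (chr11:5898783-5899032, minus strand): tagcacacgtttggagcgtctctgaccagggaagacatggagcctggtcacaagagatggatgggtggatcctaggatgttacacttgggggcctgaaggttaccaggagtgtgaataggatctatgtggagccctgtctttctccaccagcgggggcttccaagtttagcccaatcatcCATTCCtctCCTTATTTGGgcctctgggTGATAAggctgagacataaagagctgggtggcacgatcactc
*Myl3* (chr9:110763428-110763645, plus strand): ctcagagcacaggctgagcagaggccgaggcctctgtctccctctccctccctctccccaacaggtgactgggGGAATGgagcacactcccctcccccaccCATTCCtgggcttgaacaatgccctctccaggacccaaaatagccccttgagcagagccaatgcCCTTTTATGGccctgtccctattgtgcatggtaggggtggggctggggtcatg

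*Myl7* held an MCAT element at -70 to -65, a CArG box at -61 to -52 and a GATA motif at -42 to -37, counted back from the annotated start. *Myl3* held 2 MCAT elements and a CArG box at -85 to -76. *Myh6* held a GATA motif at -235 to -230 and an MCAT element at -206 to -201, and *Myh7* an MCAT element at -201 to -196. Another *Myh7* window, for a different annotated start (chr14:54994550-54994799), held none of the 6 motifs. Among 32851 RefSeq windows of 250 bases, 1.47% held the CArG box, 2.92% MEF2, 26.5% GATA, 11.8% the T-box site, 12.6% MCAT and 12.4% the TATA box. All 8 genes had a window. Only the windows of *Myh3*, *Myl4* and *Myl7* and the printed window of *Myh7* adjoin the gene's start in the deposited table. The *Myl2* windows end at 122092723 and 122093188, upstream of the *Myl2* start at 122100951, so the bases directly before that start were not searched. No MEF2 or T-box letters were found in any of the windows, and the *Myl4* window held none of the 6 motifs, which says only that these letters are not in the window. A match describes the letters and not a bound site, and a relation of motifs to level was not tested.

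Each library had 12304242 to 14546904 fragments on genes, as recovered from the FPKM, and intervals from these counts cover counting error only. Fragments of the 8 chains together were 0.00125% to 0.00267% of the total in the *in vivo* libraries, and in the *in vitro* libraries 0.0331% to 0.194%. Fibroblast markers were present in every library (10 of 10, summed FPKM 2329 to 3775 *in vitro* and 10904 to 14759 *in vivo*). All 12 macrophage markers were present in every library too, with a summed FPKM of 4951 to 6073 *in vitro* and 2009 to 3150 *in vivo*.

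*In vitro*, the α heavy chain *Myh6* (ENSMUSG00000040752, chromosome 14, 54941921 to 54966927, GRCm38, minus strand) was among the most abundant of the 8 chains, whereas *in vivo* it stayed near the limit of detection at both times. In the 2 *in vitro* libraries at 1 week its FPKM was 12.9 and 17.4, and in those at 2 weeks 128 and 108. In the *in vivo* libraries it was 0.127 and 0.183 at 1 week and 0.0922 and 0.363 at 2 weeks. Every *in vitro* library lay above every *in vivo* library. The mean was 97.8-fold higher *in vitro* at 1 week and 516-fold higher at 2 weeks. Behind the *in vivo* values are 10 and 16 fragments at 1 week and 7 and 27 at 2 weeks, so that the 95% counting interval of the fold at 2 weeks ran from 372 to 751 (exact).

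The β heavy chain *Myh7* (ENSMUSG00000053093, chromosome 14, 54970684 to 54994626, minus strand) was low in every library. Its FPKM was 0.0679 and 0.0855 *in vitro* at 1 week, 0.688 and 0.410 *in vitro* at 2 weeks, 0 and 0.00891 *in vivo* at 1 week, and 0.0617 and 0.0210 *in vivo* at 2 weeks. The fragment counts were 9 and 11, 82 and 48, 0 and 1, and 6 and 2 in the same order. *In vitro* libraries lay above the *in vivo* libraries of the same week. The ratio of *in vitro* to *in vivo* was 16.3 at 1 week (exact 95% counting interval 2.61 to 676) and 13.2 at 2 weeks (6.52 to 31.3). *In vitro*, *Myh7* had 0.488% to 0.691% of the fragments of *Myh6* in all 4 libraries. Of all stretches of 50 bases in its transcripts, 15.6% also occur in *Myh6* transcripts, so some fragments may belong to either gene, and how the counting dealt with them is not given in the sources used here.

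The embryonic heavy chain *Myh3* (ENSMUSG00000020908, chromosome 11, 67078300 to 67102291, plus strand) had 5 fragments in *in vivo* replicate 1 at 2 weeks (FPKM 0.0731) and 3 in *in vitro* replicate 1 at 2 weeks (FPKM 0.0358). It was at 0 in the other 6 libraries. A count of 0 allows up to 3 fragments, so *Myh3* was not detectable or barely detectable at this depth, and no difference can be read from it.

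**Figure D1:**
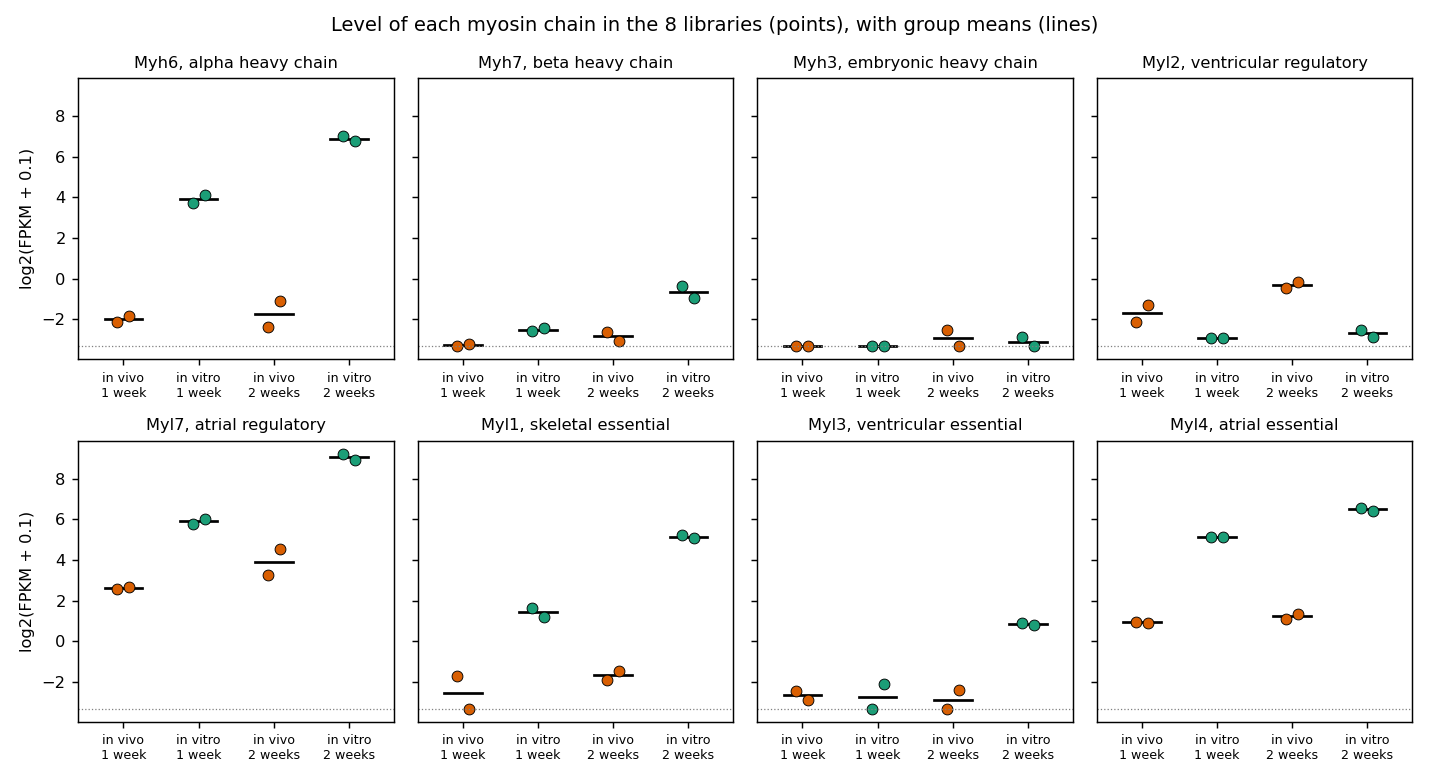
Level of each chain as log2(FPKM + 0.1) on the vertical axis in the 4 groups on the horizontal axis. Points are the 2 libraries of a group, orange *in vivo* and green *in vitro*, black lines are group means, and the dotted line is an FPKM of 0. *Myh6*, *Myl1*, *Myl4* and *Myl7* are higher in green than in orange at both weeks, *Myl3* only at 2 weeks, and *Myl2* is higher in orange, most at 2 weeks.

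The atrial regulatory light chain *Myl7* (ENSMUSG00000020469, chromosome 11, 5896637 to 5898782, minus strand) had the highest FPKM of the 8 chains in every group, with the gene lengths of the deposited table. Its FPKM was 54.6 and 65.0 *in vitro* at 1 week and 594 and 475 at 2 weeks. *In vivo* it was 5.94 and 6.38 at 1 week and 9.61 and 23.0 at 2 weeks. It was therefore present in every *in vivo* library, with 41 to 150 fragments, but always below the *in vitro* libraries. The mean was 9.72-fold higher *in vitro* at 1 week and 32.8-fold higher at 2 weeks.

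The ventricular regulatory light chain *Myl2* (ENSMUSG00000013936, chromosome 5, 122100951 to 122113472, plus strand) showed the opposite direction at a very low level. Its FPKM was 0.131 and 0.315 *in vivo* at 1 week and 0.636 and 0.789 at 2 weeks, against 0.0333 and 0.0343 *in vitro* at 1 week and 0.0742 and 0.0377 at 2 weeks. These values rest on 3 and 8, 14 and 17, 1 and 1, and 2 and 1 fragments. The *in vivo* libraries lay above the *in vitro* libraries in both weeks. The ratio of *in vivo* to *in vitro* was 6.74 at 1 week (exact 95% counting interval 1.47 to 62.6) and 12.7 at 2 weeks (3.96 to 64.9).

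Among the essential light chains, atrial *Myl4* (ENSMUSG00000061086, chromosome 11, 104550663 to 104595753, plus strand) had the highest level in every group. Its FPKM was 35 and 34.3 *in vitro* at 1 week and 94.0 and 85.9 at 2 weeks, and 1.84 and 1.77 *in vivo* at 1 week and 2.06 and 2.44 at 2 weeks. Replicates of *Myl4* lay close together and the groups did not overlap. The mean was 19.2-fold higher *in vitro* at 1 week and 39.9-fold higher at 2 weeks.

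The skeletal *Myl1* (ENSMUSG00000061816, chromosome 1, 66924295 to 66945404, minus strand) was next, with an FPKM of 3.07 and 2.23 *in vitro* at 1 week and 37.3 and 33.5 at 2 weeks. *In vivo* it was 0.206 and 0 at 1 week and 0.171 and 0.262 at 2 weeks, from 0 to 6 fragments. All *in vitro* libraries lay above all *in vivo* libraries, by 25.7-fold in the mean at 1 week and 164-fold at 2 weeks. Of its stretches of 50 bases, 11.7% also occur in the pseudogene *Mylf-ps*.

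The ventricular *Myl3* (ENSMUSG00000059741, chromosome 9, 110741861 to 110769798, plus strand) was near 0 in 6 libraries and present in culture after 2 weeks. Its FPKM was 0 and 0.131 *in vitro* at 1 week and 1.77 and 1.62 at 2 weeks, and 0.0836 and 0.0376 *in vivo* at 1 week and 0 and 0.0886 at 2 weeks. The groups overlapped at 1 week, where the ratio of *in vitro* to *in vivo* was 1.09 from 4 and 3 fragments (exact 95% counting interval 0.184 to 7.42). At 2 weeks it was 38.7, from 95 and 2 fragments (10.4 to 324). *Myl3* overlaps *Pth1r*, which lies on the other strand and had 427 to 603 fragments *in vivo* and 158 to 163 *in vitro*. The strand setting of the counting is not given in the sources used here, so the fragments of both genes may not be fully separated.

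By mean FPKM the order *in vitro* at 1 week was *Myl7*, *Myl4*, *Myh6* and *Myl1*, and at 2 weeks *Myl7*, *Myh6*, *Myl4* and *Myl1*, with no overlap between neighbours in either. *In vivo* *Myl7* and *Myl4* led at both weeks without overlap. *Myl2* followed them, overlapping *Myh6* at 1 week but not at 2 weeks, and *Myh6* and *Myl1* overlapped each other at both weeks. The order depends on the gene length used. The deposited table divides *Myl4* by 4637 bases, whereas its longest protein-coding transcript in vM21 has 943. With the longest transcripts, *Myl4* was above *Myl7* at 1 week both *in vitro* (mean 170 against 59.8) and *in vivo* (8.88 against 6.16), with no overlap. At 2 weeks *Myl7* was above *Myl4* *in vitro* (535 against 442), and *in vivo* they overlapped (mean 16.3 for *Myl7* and 11.1 for *Myl4*). On these lengths *Myl4* was also above *Myh6* *in vitro* at 2 weeks (mean 129 for *Myh6*), and *Myl2* no longer overlapped *Myh6* *in vivo* at 1 week.

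To compare cells in the infarcted heart with cells in culture, log2(FPKM + 0.1) was tested with limma across 15708 genes, and a gene was called when its log2 fold change lay beyond 1 in either direction and its p, adjusted by Benjamini-Hochberg over all of them, was below 0.01. Of the 6 tested chains, *Myh6* and *Myl1* reached 0.5 FPKM only *in vitro*, and *Myl3* only *in vitro* at 2 weeks. *Myl2* reached it only *in vivo* at 2 weeks, and only *Myl4* and *Myl7* reached it in every library. Entry of *Myh6*, *Myl1*, *Myl2* and *Myl3* thus depended on the groups where they were high, and the counts below are not independent of it. At 1 week, 4 of the 6 tested chains were lower *in vivo* and none was higher, where 5.07% of all tested genes were lower and 7.79% were higher. The log2 fold change was -5.89 for *Myh6* (standard error 0.39, limma adjusted p = 4.7e-05), -4.19 for *Myl4* (0.094, 6.2e-07), -3.96 for *Myl1* (0.49, 7.9e-04) and -3.26 for *Myl7* (0.36, 4.8e-04). *Myl2* had a log2 fold change of 1.21 (limma adjusted p = 0.11) and *Myl3* of 0.06 (adjusted p = 0.95), and neither passed. The *Myl1* call was lost with a pseudocount of 0.01 (adjusted p = 0.01001) and with the libraries of that week alone (0.013), and its value was -4.76 without *in vivo* replicate 1 and -3.15 without *in vivo* replicate 2, where the call held. No *in vivo* library of either week reached the lowest *in vitro* library for 4 of the 6 tested chains (*Myh6*, *Myl1*, *Myl4* and *Myl7*), as was so for 20% of all tested genes. With *Myl2*, which did not overlap in the other direction, it was 5 of 6, against 40.5% of all tested genes in either direction. The median over the 6 tested chains was -3.61, and -0.0058 over all tested genes.

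At 2 weeks, 5 of the 6 were lower *in vivo* and *Myl2* was higher, where 8.05% of all tested genes were lower and 9.02% were higher. *Myl2* and *Myl3* were tested only because of the libraries of this week in which they were high. The log2 fold change was -8.62 for *Myh6* (limma adjusted p = 7.1e-06), -6.82 for *Myl1* (5.1e-05), -5.26 for *Myl4* (3.2e-07), -5.15 for *Myl7* (4.6e-05) and -3.71 for *Myl3* (0.0025). For *Myl2* it was 2.39 (standard error 0.53, adjusted p = 0.0087). Without *in vivo* replicate 1 or 2 of that week, the value was -7.98 or -9.25 for *Myh6* and -4.52 or -5.77 for *Myl7*, and both stayed called. Because of the pseudocount these fold changes understate the change of low genes. The *Myl2* call was the least stable: it was lost in 10 of 17 alternatives, among them the FPKM rescaled to the fragments counted on genes (adjusted p = 0.012), and without any 1 of the 2-week libraries or of the *in vitro* libraries at 1 week (limma adjusted p = 0.013 to 0.042). The *Myl3* call was lost in 4 of 18, namely a pseudocount of 0.01 (adjusted p = 0.024) and the fits without *in vivo* replicate 1 (0.011), *in vitro* replicate 1 (0.025) or *in vitro* replicate 2 (0.023) of 2 weeks.

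The course from 1 to 2 weeks was compared within each setting. *In vitro*, 5 of the 6 chains rose, where 2.76% of all tested genes rose. *Myl3* was tested only because its *in vitro* libraries of 2 weeks passed the filter, so its selection favoured a rise. The log2 fold change was 3.71 for *Myl1* (limma adjusted p = 0.0031), 3.56 for *Myl3* (0.0085), 3.15 for *Myl7* (0.0019), 2.96 for *Myh6* (0.0031) and 1.37 for *Myl4* (3.7e-04). *Myl2* had 0.21 (adjusted p = 0.81). In terms of the mean FPKM, *Myl3* rose 25.9-fold, from 4 to 95 fragments over both libraries, *Myl1* 13.4-fold, *Myl7* 8.94-fold, *Myh6* 7.77-fold and *Myl4* 2.59-fold. Leaving out any of the 4 *in vitro* libraries left 1 call, that of *Myl4*, with the other 4 at the same sign and a limma adjusted p of 0.016 to 0.064. Leaving out either *in vivo* library of 1 week left 3, without *Myh6* (adjusted p = 0.011) and *Myl3* (0.016).

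*In vivo*, none of the 6 chains was called between 1 and 2 weeks by limma, where 2.18% of all tested genes were called in either direction. The log2 fold change was 1.38 for *Myl2* (adjusted p = 0.12), 1.26 for *Myl7* (0.058), 0.84 for *Myl1* (0.29), 0.30 for *Myl4* (0.077), 0.24 for *Myh6* (0.73) and -0.21 for *Myl3* (0.86). At an unadjusted p under 0.05, 3 of the 6 passed, namely *Myl7*, *Myl4* and *Myl2*, against 31.7% of all tested genes, and limma voom on the recovered fragments called 0 of the 6. Without *in vivo* replicate 1 at 2 weeks, *Myl7* passed with 1.89 (adjusted p = 0.0054). The 2 libraries of that group had an FPKM of 9.61 and 23.0.

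The difference between the weeks was tested itself through an interaction contrast, in which 1.15% of all tested genes were called in the negative direction. *Myl4* passed, with -1.07 (standard error 0.13, limma adjusted p = 0.0064), so its gap between *in vivo* and *in vitro* was wider at 2 weeks. *Myl3* had -3.77 (adjusted p = 0.043), *Myl1* -2.87 (0.047), *Myh6* -2.72 (0.028), *Myl7* -1.89 (0.063) and *Myl2* 1.17 (0.36), and none of these passed. The *Myl4* call was lost in 11 of 17 alternatives, among them without any 1 library other than *in vivo* replicate 2 of 2 weeks (-1.14 to -0.96, limma adjusted p = 0.014 to 0.039). Without that library *Myh6* (-3.36, adjusted p = 0.0091) and *Myl7* (-2.52, 0.0085) passed as well.

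**Figure D2:**
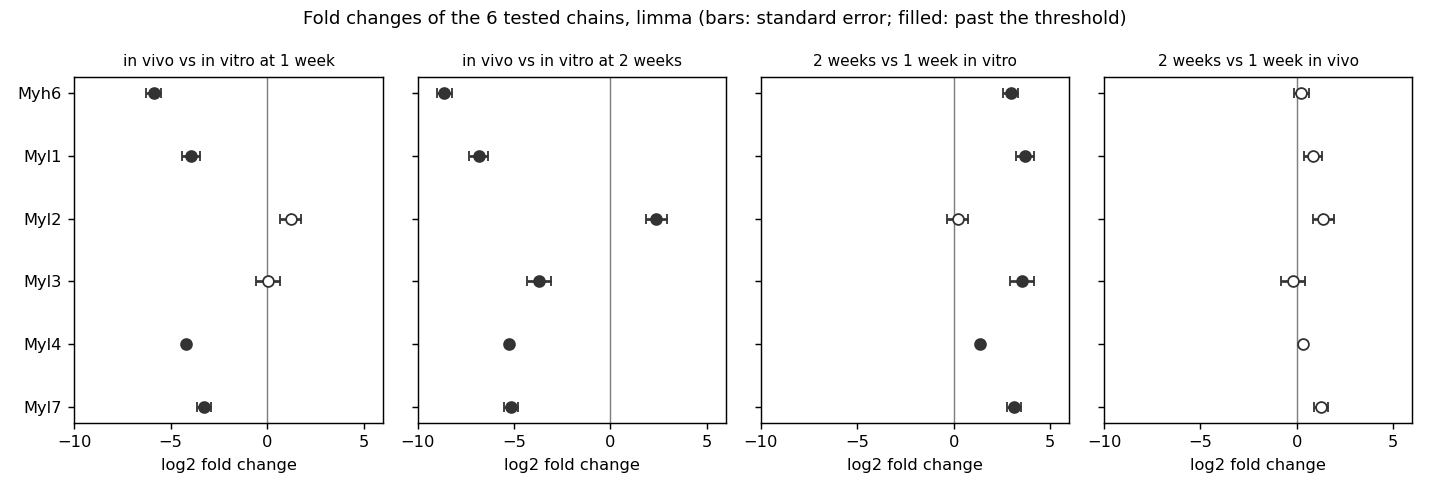
Log2 fold change (horizontal axis) of the 6 tested chains in 4 comparisons, with the standard error from limma as bars. Filled points passed the threshold: 4 of 6 chains at 1 week and 6 of 6 at 2 weeks for *in vivo* against *in vitro*, 5 of 6 over time *in vitro*, and 0 of 6 over time *in vivo*. *Myh6*, *Myl1*, *Myl2* and *Myl3* entered the tests only through groups in which they were high.

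The make-up of each kind of chain was described by shares of the summed FPKM, which do not depend on the overall level. *Myh6* made up 99.5% to 99.6% of *Myh6* and *Myh7* in every *in vitro* library. *In vivo* it made up 100% and 95.3% at 1 week and 59.9% and 94.5% at 2 weeks, from only 10 to 29 fragments of both genes. The Wilson 95% interval of the share of fragments in the lowest of these libraries ran from 29.1% to 76.8%. Over 4 libraries each, the mean was 87.4% ± 18.5 (SD) *in vivo* against 99.5% ± 0.072 *in vitro*, a difference that did not pass the two-sided exact permutation test (p = 0.14, adjusted over 6 shares 0.34). It was -12.1 percentage points, and -2.89 without *in vivo* replicate 1 of 2 weeks.

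Of the regulatory light chains, *Myl7* made up 95.9% ± 1.75 *in vivo* against 99.97% ± 0.027 *in vitro* (SD over n = 4 libraries). The 4 *in vivo* libraries (93.8% to 97.8%) lay below the 4 *in vitro* libraries (99.94% to 99.99%), with a two-sided exact permutation p of 0.029, the smallest that 4 against 4 can give, and 0.17 after adjustment over 6 shares. The test pooled both weeks and did not keep the week fixed. The difference of -4.07 percentage points was -8.45 with the longest transcripts as lengths and -12.1 in fragments without a length correction.

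Within the essential light chains, the share of *Myl1* was higher and that of *Myl4* lower in culture at 2 weeks than at 1 week. *Myl4* made up 91.9% and 93.6% at 1 week and 70.6% and 70.9% at 2 weeks *in vitro*, while *Myl1* went from 8.06% and 6.07% to 28.0% and 27.7%. *Myl3* made up 1.33% and 1.34% of the essential chains *in vitro* at 2 weeks. The replicates differed by far less than the weeks. The exact permutation test of 2 libraries against 2 gives no p under 0.33, so the weeks are given by their values, and no other test of the shares was run. *In vivo* *Myl4* made up 86.4% to 97.9% and *Myl1* 0% to 9.66%, from 107 to 133 fragments in all. Over both weeks the shares of *Myl4* (exact permutation p = 0.31), *Myl1* (0.26) and *Myl3* (0.17) gave no difference between *in vivo* and *in vitro* libraries that passed (n = 4 each). With the longest transcripts in place of the table's lengths, *Myl4* went from 96.7% to 97.4% at 1 week to 86.0% to 86.2% at 2 weeks *in vitro*, and *Myl1* from 2.46% to 3.31% up to 13.1% to 13.3%. The direction was the same, with a smaller size.

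**Figure D3:**
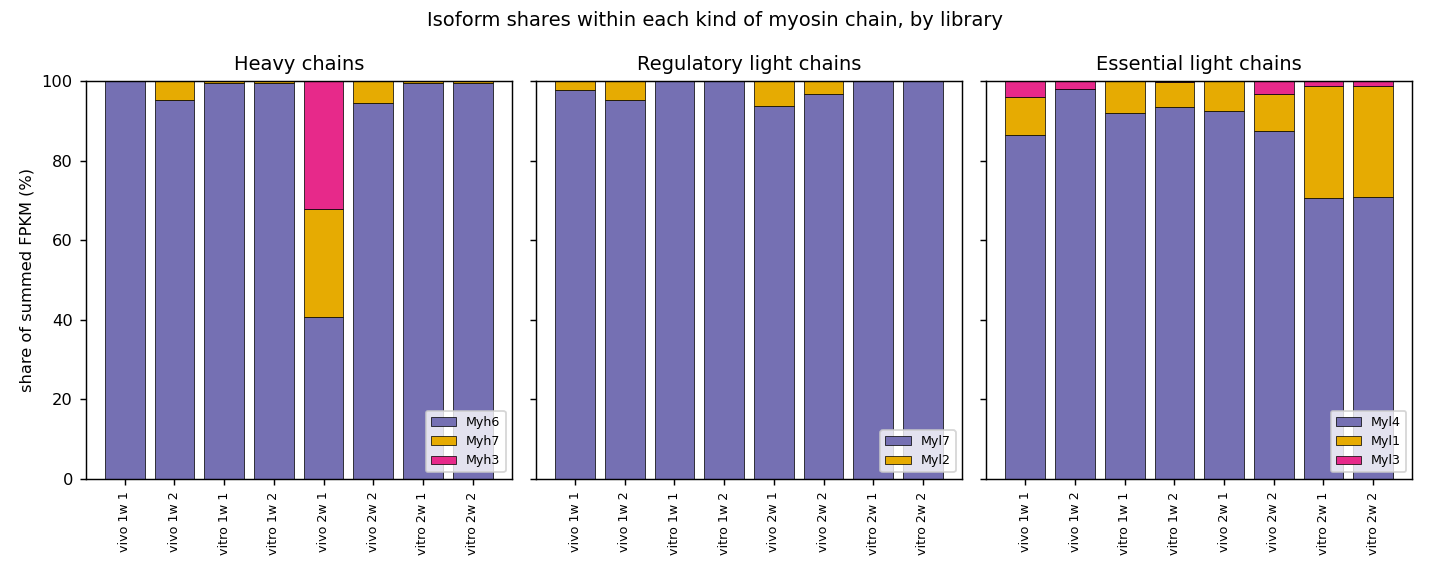
Share of the summed FPKM (vertical axis, %) of each chain within the heavy, regulatory light and essential light chains, 1 bar per library. *Myh6*, *Myl7* and *Myl4* take the largest part of every bar of their kind. *Myl1* has its own largest shares (28.0% and 27.7%) *in vitro* at 2 weeks, below those of *Myl4*. For the heavy chains, *in vivo* replicate 1 at 2 weeks stands apart, with 18 fragments in all.

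The other genes of the thick filament were counted from lists. Of 9 other sarcomeric myosin chains, 2 were tested. *Mylpf*, the regulatory light chain of fast skeletal muscle, was lower *in vivo* at 2 weeks (log2 fold change -3.71, limma adjusted p = 0.0016) but not at 1 week (-0.98, 0.21). *Myh1*, an adult fast skeletal heavy chain, was lower at both (-3.15, adjusted p = 1.6e-04, and -3.29, 1.0e-04). Its FPKM was 2.73 to 2.77 *in vitro* at 1 week and 0.181 to 0.269 *in vivo*. *Myh1* reached 0.5 FPKM only *in vitro*, so its entry depended on the setting where it was high.

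Of 16 thick filament partners and myosin chaperones, 9 were tested, and 4 were lower *in vivo* at 1 week and 6 at 2 weeks, with none higher. Of all tested genes, 5.07% were lower and 7.79% higher at 1 week, and 8.05% and 9.02% at 2 weeks. *Mybpc2*, *Mybpc3*, *Mybphl*, *Myom2*, *Smyd1* and *Trim63* reached 0.5 FPKM only *in vitro*. Their entry thus depended on the setting where they were high, and the counts are not independent of it. *Unc45b*, the chaperone that folds muscle myosin, had an FPKM of 19.8 and 20.2 *in vitro* at 2 weeks against 0.848 and 0.927 *in vivo* (log2 fold change -4.35, limma adjusted p = 8.2e-07). *Mybpc3*, the cardiac myosin-binding protein C, was at 5.78 and 6.88 *in vitro* against 0.304 and 0.340 *in vivo* at 2 weeks (-3.92, 7.0e-06). *Trim63*, a ubiquitin ligase of the sarcomere, was lower at both weeks (-2.05, adjusted p = 0.0079, and -3.70, 4.5e-04). *Mybphl*, a relative of myosin-binding protein H, was at 1.99 to 6.57 in the *in vitro* libraries and listed at 0 in all 4 *in vivo* libraries.

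The chains listed as smooth muscle or non-muscle myosins had no shared direction. Of 9 smooth muscle and non-muscle class II chains, 8 were tested, of which 2 fell below the *in vitro* level at 1 week. At 2 weeks 1 was below it and 1 above. Their median log2 fold change was 0.34 (1 week) and 0.05 (2 weeks). Of all tested genes, 5.07% were lower and 7.79% higher at 1 week, and 8.05% and 9.02% at 2 weeks. *Myh11*, the smooth muscle heavy chain, was lower *in vivo* at 1 week (-1.22, limma adjusted p = 3.2e-05) and had -0.96 at 2 weeks. *Myl6b* was lower at both weeks (-1.05 and -1.28), and *Myl12b*, a non-muscle regulatory light chain, was higher at 2 weeks (1.37, adjusted p = 1.8e-04). The difference between this list and the 8 chains was not tested. Of 8 light chain kinases and phosphatase subunits, 7 were tested and 1 was called, *Mylk3*, the cardiac kinase that phosphorylates *Myl2* protein. It was lower *in vivo* at both weeks (-1.54, adjusted p = 0.0095, and -3.32, 2.4e-04). *Mylk3* reached 0.5 FPKM only *in vitro*, so its entry depended on the setting where it was high.

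Of 22 other cardiomyocyte genes, 20 were tested. At 1 week 11 were lower *in vivo* and 1 was higher, where 5.07% of all tested genes were lower and 7.79% higher. At 2 weeks 14 were lower and 1 was higher, against 8.05% and 9.02% of all tested genes. Those with the largest fold changes at 2 weeks were, with the value at 1 week first, *Csrp3* (-3.59 and -5.91), *Actc1* (-3.43 and -5.84), *Tnnc1* (-3.48 and -5.14) and *Smpx* (-3.25 and -4.92), with limma adjusted p-values of 7.6e-04 or less. *Actc1* encodes cardiac α-actin of the thin filament. The gene that was higher at both weeks, named after its values were seen, was *Pln* (phospholamban, which restrains the calcium pump), with 2.51 (adjusted p = 0.0011) and 3.97 (1.1e-04). Its FPKM was 2.56 and 3.31 *in vivo* at 2 weeks and 0.0800 and 0.105 *in vitro*, and like *Myl2* it stayed low in culture. *Pln* reached 0.5 FPKM only *in vivo*, and *Csrp3*, *Smpx* and *Actn2* only *in vitro*. Entry of these genes depended on the setting where they were high, and the counts are not independent of it.

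**Figure D4:**
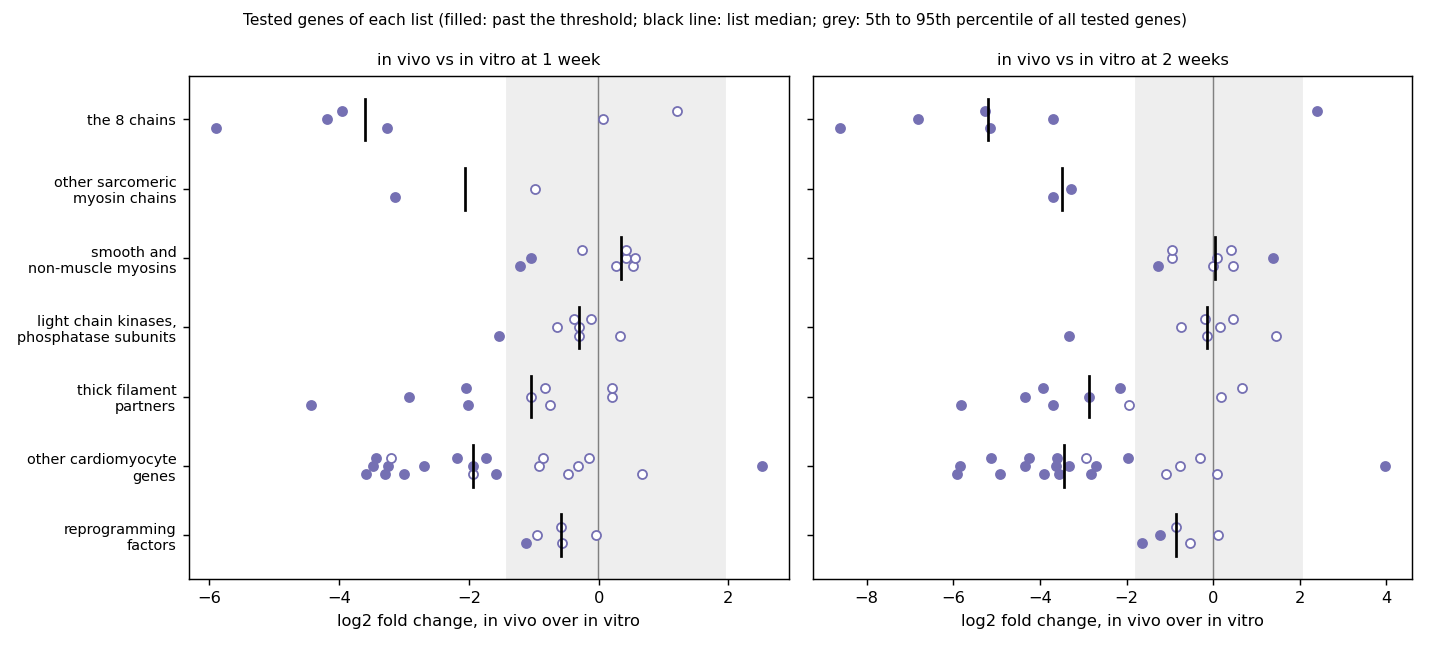
Log2 fold change *in vivo* over *in vitro* (horizontal axis) of the tested genes of 7 lists at 1 week (left) and 2 weeks (right). Filled points passed the threshold, black lines are list medians, and the grey band runs from the 5th to the 95th percentile of all tested genes. Some listed genes entered the tests only through the setting in which they were high. The median of the 6 tested chains is -3.61 at 1 week and -5.21 at 2 weeks, that of the other cardiomyocyte genes -1.93 and -3.44, and that of the smooth and non-muscle chains 0.34 and 0.05.

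Other measures moved with the same comparison, and their part in the results was not tested. Of the 5 delivered factors, *Sall4* (-1.11, limma adjusted p = 0.0059, and -1.65, 8.1e-04) was lower *in vivo* at both weeks and *Myocd* at 2 weeks (-1.22, adjusted p = 3.5e-04, after -0.95 at 1 week). *Gata4* had -0.56 and -0.86, *Tbx5* -0.57 and -0.53 and *Mef2c* -0.04 and 0.11, none past the fold threshold. Transcripts of the viral and the cells' own copies were not told apart. The summed FPKM of the 5 factors was 55.1 to 58.1 *in vivo* and 83.2 to 110.8 *in vitro*, and *in vitro* none of the 5 was called between the weeks, with *Myocd* at 0.09 and *Sall4* at -0.01.

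The marker lists of other cells differed between *in vivo* and *in vitro* libraries too. Of all tested genes, 5.07% were lower and 7.79% higher at 1 week, and 8.05% and 9.02% at 2 weeks. All 6 mesothelial markers were lower *in vivo* at both weeks (summed FPKM 13.1 to 31.1 *in vivo*, 234 to 487 *in vitro*; *Upk1b* -5.30 and -4.62). Of 10 fibroblast markers, 7 were higher *in vivo* at both weeks, for example *Postn* (3.46 and 3.56) and *Lum* (2.56 and 2.06). Of 12 macrophage markers, 1 was higher (*Fcgr1*, 2.61) and 1 lower (*Lyz2*, -1.45) at 1 week, and 6 were lower at 2 weeks. Of 8 endothelial markers, 7 were higher at 1 week and 3 at 2 weeks (summed FPKM 80.6 to 92.8 *in vivo*, 21.6 to 58.5 *in vitro*). Of 13 skeletal muscle markers, 8 were tested, with 1 higher (*Pvalb*) and 2 lower (*Actn3* and *Tnnt1*) at 1 week and 4 lower at 2 weeks. Of 7 smooth muscle markers, 1 was lower at 2 weeks (*Des*, -1.47), and of 7 lymphocyte markers 1 was tested and not called, with a summed FPKM of 0.325 to 1.76 *in vivo*. Skeletal *Actn3* reached 0.5 FPKM only *in vitro*, and endothelial *Vwf* and the lymphocyte marker *Cd79a* only *in vivo*. Entry of these genes depended on the setting where they were high.

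Across the 8 libraries, log2(FPKM + 0.1) of the chains that were lower *in vivo* moved together, with a Pearson r of 0.94 to 0.99 among *Myh6*, *Myl1*, *Myl4* and *Myl7*. *Myl3* had r = 0.71 to 0.86 with these and *Myl2* r = -0.80 to -0.60. These correlations are descriptions over libraries that fall into 4 groups and share their depth. The genes outside the 8 with the highest r were *Rab3b* for *Myh6* (0.999), *Eloc* for *Myl1* (0.999), *Hspa12a* for *Myl2* (0.994), *Lpcat4* for *Myl3* (0.982), *Ezr* for *Myl4* (0.999) and *Agpat5* for *Myl7* (0.994). Their range differed widely: *Rab3b* went from an FPKM of 0.151 to 8.51 over the 8 libraries, while *Eloc* went from 13.1 to 19.0. *Mybpc3*, the binding partner of the thick filament named above, was the third for *Myl4* (0.998).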

How the data were processed

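RNA from sorted eGFP+ MICFs was made into libraries with a SMARTER mRNA-Seq kit, and preparation, sequencing and mapping were done by Novogene. The submitters' processing notes name CASAVA, HISAT2 2.0.5 and mm10. The counting tool and its strand setting are not given in the sources used here. The authors deposited 1 table of FPKM per gene and library, and its 8 columns were matched to the samples by name, with 0 columns left over. Of 54409 gene identifiers shared with GENCODE vM21, 98.3% had the same position, and coordinates are on that build, GRCm38.

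The fragments per gene were recovered from the FPKM and gene lengths, since their products are whole numbers of steps (100% of values above 0, tolerance 0.05). An FPKM of 0.0650 to 0.0905 stands for 1 fragment per kilobase. The library size behind the FPKM was 0.863 to 0.915 times the fragments counted in the *in vivo* libraries, against 1.09 to 1.15 in the *in vitro* libraries, so the deposited values include a scaling between libraries.

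Values were compared as log2(FPKM + 0.1) by limma 3.58.1 in R 4.3.3 with a variance trend and 4 groups, since the deposited unit is FPKM. The limits on p and fold are those of the study, whose methods name no adjustment. The adjustment over all tested genes was added here. The fit was tested on simulated data with known changes, for the comparison at 1 week only and with the same spread for every gene. It recovered 117 of 136 changes over 2-fold, with 2 wrong calls among 15138 unchanged genes. Recovery among genes as low as these chains *in vivo* was not counted separately. Shares were compared by a two-sided exact permutation test over the libraries of both weeks, whose smallest p is 0.0286. The week was not kept fixed in it, although some shares differed between the weeks. Replicates differed beyond sampling noise (chi-square per gene 4.50 to 9.93). Same-numbered libraries did not deviate together (correlation -0.022 to -0.011), so numbers were not treated as pairs.

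The genes, the lists and the tests were chosen with earlier results of these data known. Named genes are the 8 chains, up to 4 called genes per list with the largest fold change, the delivered factors and, for likeness, the 3 genes with the highest Pearson r. Alternatives were other pseudocounts, filters and scalings, limma voom on the recovered fragments, the replicate block, no variance trend, single weeks and each library left out. A further alternative for the shares, the longest coding transcript as the length, was added after seeing the data. The median transcript length was tried first and set aside, since partial transcript models lower it. Python 3.11.15, numpy 2.4.6, pandas 2.3.3, scipy 1.17.1 and matplotlib 3.10.9 were used.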

Additional observations from a re-analysis of the deposited data

Results flagged for a closer look

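The interaction contrast of *Myl4* stood out because the gap between *in vivo* and *in vitro* libraries differed between the weeks in a test of the difference itself. It was -1.07 on the log2 scale (limma adjusted p = 0.0064), between log2 fold changes of -4.19 at 1 week and -5.26 at 2 weeks. The call was lost in 11 of 17 alternatives, where the value ran from -1.19 to -0.94 and the adjusted p from 0.0031 to 0.039 over all 17.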

How the results depend on the processing

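Over 30 results (6 chains in 5 comparisons) and up to 18 alternatives, 448 of 517 values kept their direction and their side of the threshold, 55 kept the direction but no longer passed, 6 newly passed and 8 changed sign. *Myh6*, *Myl4* and *Myl7* kept their calls for *in vivo* against *in vitro* at both weeks in all 18 alternatives. The sign changed for *Myl3* at 1 week with a pseudocount of 1 (-0.0043), with quantile normalization (-0.32), with FPKM rescaled to fragments (-0.043), without *in vivo* replicate 1 (-0.14) and without *in vitro* replicate 1 (-0.54), within a range of -0.54 to 0.67 over the libraries left out. It also changed over time *in vivo* for *Myl3* with quantile normalization (0.14) and without *in vivo* replicate 1 at 2 weeks (0.25, range -0.67 to 0.25), and for *Myh6* without *in vivo* replicate 2 at 2 weeks (-0.40, range -0.40 to 0.87). None of these values passed the test, and the cause was not tested.

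Over time *in vitro*, 5 chains passed, against 2 with a pseudocount of 0.01, 3 without a variance trend and 1 to 5 with a library left out. Over time *in vivo*, 0 passed, and 0 to 1 with a library left out. For the interaction, 1 passed, against 4 with a pseudocount of 1, 0 without a filter, 0 with quantile normalization, 0 without a variance trend, and 0 to 3 with a library left out. With the replicate block the number of chains called was 4, 5, 4, 0 and 0 in the 5 comparisons, in which the call of *Myl2* at 2 weeks (adjusted p = 0.017), of *Myl3* over time *in vitro* (0.016) and of *Myl4* in the interaction (0.019) was lost. The block moved the all-gene count of the interaction from 271 to 27. It moved no other all-gene count by over 1.5 times. The interaction count of all genes was 72 without a filter, 71 without a variance trend, 477 with limma voom and 2 to 86 with a library left out. The all-gene count over time fell from 599 to between 198 and 235 *in vitro* without an *in vitro* library, and from 342 to between 11 and 221 *in vivo* with a library left out. The difference in the *Myl7* share was -4.07 percentage points, -12.1 in fragments without a length correction and -8.45 with the longest transcripts, an alternative added after seeing the data. Depth limits *Myh7*, *Myh3*, *Myl1*, *Myl2* and *Myl3*, which had at most 17 fragments in any *in vivo* library.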
